A study of Mus musculus with 4 samples.

Results

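Keratins are the intermediate filament proteins of epithelial cells, and their genes were described here in 4 lines of L1210, a mouse lymphocytic leukemia cell line. The members were every probe whose deposited gene symbol was Krt followed by digits and at most 1 letter, which gave 68 of the 55681 gene probes on the array and 52 of its 24561 gene symbols. The rule used no measured value. According to the labels, L1210 cells (DBA subline 212) were infected with lentivirus, and the stably transfected GFP+ cells were isolated by FACS and lysed in Trizol. L1210-control served as the control, L1210-Fbxw11a expressed the full-length variant of Fbxw11, an F-box protein of a ubiquitin ligase, L1210-Fbxw11c expressed a variant without 1 alternative exon, and L1210-Fbxw11d expressed a variant without 2 of them. Each line was hybridised to 1 Agilent 1-colour array, so n = 1 throughout. There were no replicates for any difference, and so no p-values are given. Lists of 4 values run from L1210-control through L1210-Fbxw11a and L1210-Fbxw11c to L1210-Fbxw11d, and lists of 3 values or ratios give the 3 variant lines in that same order.

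Type I and type II keratins assemble as pairs, 1 chain of each type, into filaments that hold epithelial cells together through desmosomes. Simple epithelia make Krt8 with Krt18, basal cells of the epidermis make Krt5 with Krt14, and its upper layers make Krt1 with Krt10. The inner root sheath and the shaft of the hair have keratins of their own. Blood cells are known for vimentin and lamins as intermediate filaments and are not classical keratin producers.

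Signals below are those of the scanner software, background-corrected and scaled to the 75th percentile of the L1210-control array, in arbitrary units. They compare 1 probe, or the sum of a marker list, between lines, and never 1 probe with another. A probe was called well above background by the scanner's flag. Such a probe is called detected below. The lowest signals of probes with every spot detected were 18.1, 14.4, 14.9 and 10.4. Every keratin probe was printed on 1 spot. The error given with a log2 ratio is the scanner software's error of 1 spot on each array, and it leaves out the spread between cultures. Probes on several spots had a median SD between spots of 0.42 to 0.71 (log2) under a signal of 50 and of 0.050 to 0.095 over 5000. The arrays of L1210-control, L1210-Fbxw11a and L1210-Fbxw11c shared slide 1 and that of L1210-Fbxw11d was alone on slide 2, so slide and variant cannot be told apart for L1210-Fbxw11d. After scaling, the median of all probes differed from that of L1210-control by 0.01, -0.08 and -0.22 on the log2 scale, and the mean of 9 spike-in probes by 0.07, 0.10 and -0.59.

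The labelled cell type was checked against defining markers. Of 17 lymphoid marker genes on the array, 6 (Il7r, Ebf1, Rag1, Cd79b, Ikzf1 and Igll1) were well above background in no line. The pan-leukocyte marker Ptprc had signals of 42.9, 36.1, 29.7 and 31.8. Cd24a, a surface gene on the lymphoid list, reached 7744, 6927, 10508 and 10185, and Cd3e, a T cell receptor component, 1293, 1599, 1478 and 1441. Whether the Cd24a signal came from lymphoid cells alone was not tested. Of 37 probes for 25 epithelial marker genes, 21, 24, 23 and 25 were well above background, where 62.5%, 66.0%, 64.3% and 68.7% of all gene probes were, and the epithelial marker Epcam had signals of 101, 236, 137 and 104. The summed signal of the epithelial markers was 65932, 93701, 86960 and 79164. To this sum 1 Itga6 probe contributed 46905 in L1210-control and 73887 in L1210-Fbxw11a. The summed signal of the lymphoid markers was 12842, 12349, 15736 and 15176. Most of this sum in each line, 7744, 6927, 10508 and 10185, came from the Cd24a probe. The keratin signals below were measured in RNA with these marker levels, and the part of any epithelial cell in them was not tested. Fewer cells of a type and less RNA per cell cannot be told apart. Both Fbxw11 probes lie far into the transcript, starting at bases 3692 and 3803 of it. Their log2 ratios to L1210-control were 0.21, 0.22 and 0.18 for the first and 0.31, 0.27 and 0.025 for the second. The sources do not say whether the introduced copies hold that stretch, so these probes do not check the labels.

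Several keratin probes are nearly the same in sequence, which bears on which gene a signal belongs to. The following probes, for the hair keratins Krt81 and Krt83, lie in a stretch that the type II family shares. Capitals mark the 24 bases in a row that both probes share.
Krt81: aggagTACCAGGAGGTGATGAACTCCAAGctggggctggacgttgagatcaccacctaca
Krt83: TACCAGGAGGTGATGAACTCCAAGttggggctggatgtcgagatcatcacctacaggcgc
On their best ungapped alignment the Krt81 probe was identical to the Krt83 probe at 51 of 55 bases. Of the 2278 pairs of keratin probes, 7 were at least 70% identical over 40 or more bases, and the gene behind the signal of such a probe, Krt81 included, is uncertain. The Krt83 probe was well above background in no line, while the Krt81 probe read 97.6, 147, 115 and 103. Another of the 7 pairs was the Krt81 probe with the first Krt85 probe, which read 9630, 11922, 10154 and 11448. How much each probe took up RNA of its neighbours was not tested.

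Krt27, which differed most between the lines among the keratin probes detected in all 4, was read by the probe shown here, on the minus strand, whose 60 bases are spread over 671 bases of the genome and so cross an intron, at chr11:99207158-99207828 (mm9).
Krt27: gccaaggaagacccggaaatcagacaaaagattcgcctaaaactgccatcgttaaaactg
No other keratin probe shared 15 or more bases in a row with it. Among the 3 pairs of keratin probes that did share such a run were the Krt81 and Krt83 probes above and the pair of Krt78 probes described further on. The remaining pair was the Krt81 probe with the first Krt85 probe.

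A smaller share of the keratin probes than of all probes was detected on each array. In L1210-control 32 of the 68 keratin probes were well above background, or 47.1%, where 62.5% of all gene probes were. In each variant line the number was 38, or 55.9%, against 66.0%, 64.3% and 68.7% of all gene probes. In all 4 lines 31 of the 68 probes were detected, where 59.4% of all gene probes were, in none 24, and the other 13 were detected in 1 to 3 lines.

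By the probe seen in most lines, 28 of the 52 genes were detected in all 4 lines. These were Krt2, Krt5, Krt6b, Krt8, Krt9, Krt10, Krt13, Krt14, Krt16, Krt17, Krt18, Krt19, Krt20, Krt24, Krt27, Krt31, Krt33b, Krt36, Krt42, Krt73, Krt76, Krt79, Krt80, Krt81, Krt82, Krt85, Krt86 and Krt222. In 3 lines, all but L1210-control, Krt26 and Krt28 were detected. In 2 lines Krt1, Krt7, Krt72 and Krt74 were detected, and in 1 line Krt15, Krt71 and Krt78. Krt4, Krt6a, Krt12, Krt23, Krt25, Krt32, Krt33a, Krt34, Krt35, Krt39, Krt40, Krt75, Krt77, Krt83 and Krt84 were not well above background in any line, which for an array is a limit of detection and not absence.

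Detection was also counted by class of keratin, in small numbers and with no test between classes. Over all gene symbols, 66.2% had a probe detected in all 4 lines. Of the 15 type I genes of epithelia, 12 had a probe detected in all 4 lines, and of the 13 type II genes of epithelia, 7 did. For the type I hair keratins the number was 3 of 9 and for the type II hair keratins 4 of 6. Among the keratins of the inner root sheath, only 1 of 4 type I genes (Krt27) and 1 of 5 type II genes (Krt73, counted with the companion layer) were detected in all 4 lines. The type I genes other than Krt18 lie together on chromosome 11, where the probes spanned positions 99094648 to 100128311 (mm9). The type II genes and Krt18 lie on chromosome 15, at 101180014 to 101862400. On chromosome 11, 16 of 36 probes were detected in all lines, and on chromosome 15 14 of 31, again against 59.4% of all gene probes.

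**Figure D1:**
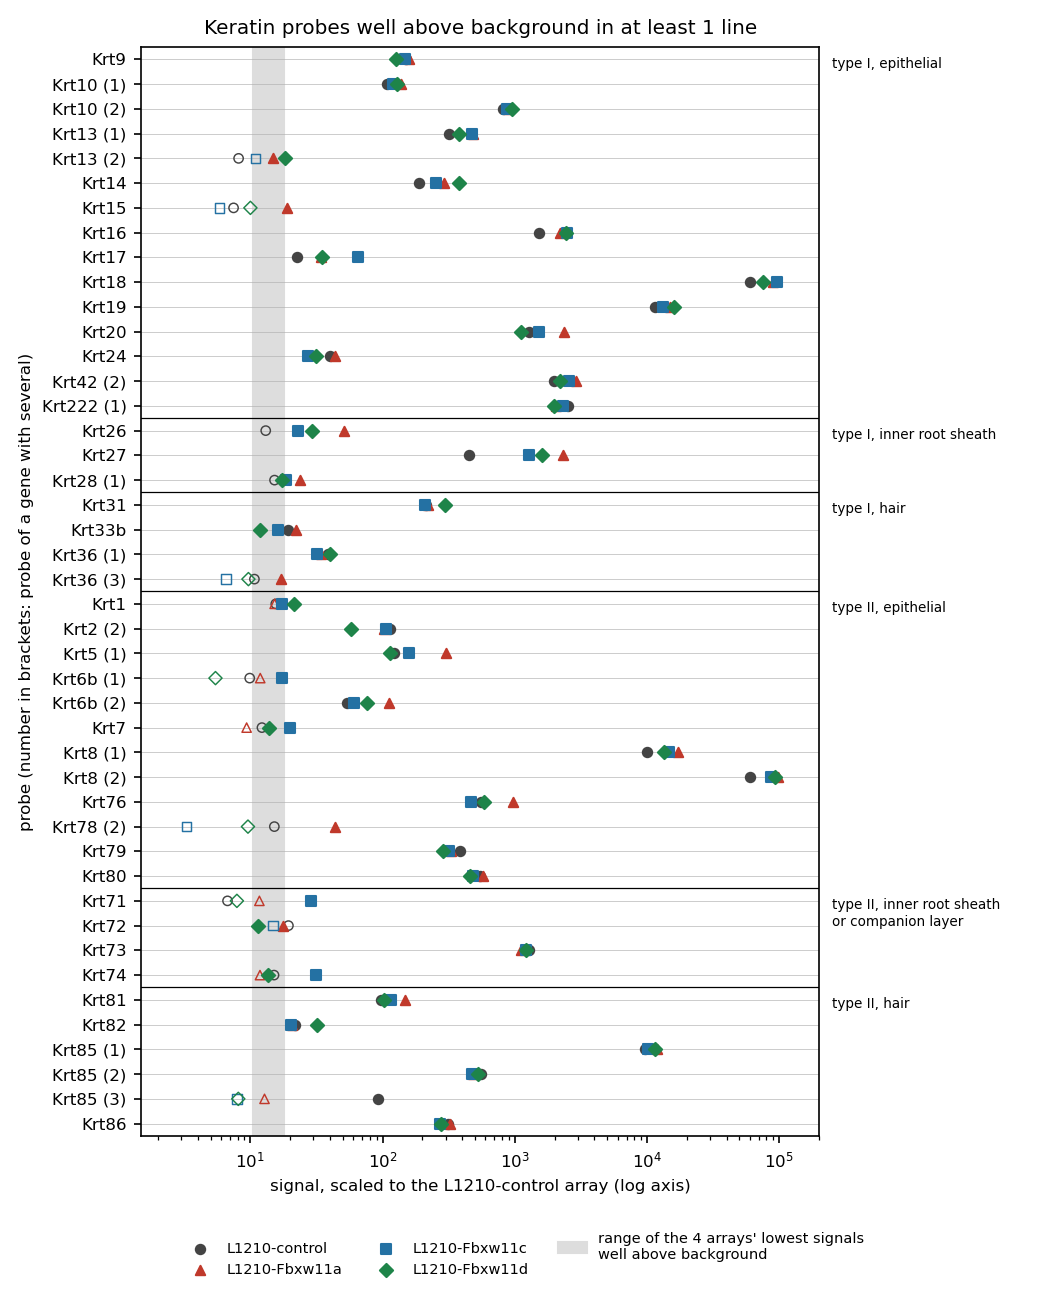
Signal (log axis, scaled to the L1210-control array) of the 44 keratin probes detected in at least 1 of the 4 lines, grouped by class. Each marker is 1 array, filled where the probe was well above background and open where not, and the grey band spans the lowest detected signals of the 4 arrays, 10.4 to 18.1. The 4 markers of most probes lie close together, and Krt27 is spread from 449 to 2329.

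Relative to L1210-control, Krt27, a type I keratin of the inner root sheath of the hair follicle, was higher in all 3 variant lines, and it was the sole keratin at least 2-fold higher in all 3. The threshold was 2-fold. Probes detected on either array of a pair were compared. If the other array did not detect it, the fold of a probe is a bound ("at least"), set by the detection limit of that array or by the probe's own signal if that was higher. In L1210-Fbxw11a 5 of the 39 keratin probes compared were at least 2-fold higher and 1 was lower. In the background of all probes compared, 2.71% were higher and 2.42% lower in this line. In L1210-Fbxw11c 2 of 39 were higher and 1 was lower, against 1.69% and 2.78% of all probes. In L1210-Fbxw11d 2 of 39 were higher and 1 was lower, against 0.985% and 5.99%. After normexp background correction 1 keratin probe (Krt27) was higher and 1 (Krt85) lower in each line, and the background in L1210-Fbxw11d was 45 higher and 1055 lower. With median centring that background was 847 higher and 1534 lower, in place of 385 and 2340, with 2 keratin probes still higher and 1 lower. Since the 3 comparisons share the L1210-control array, they are not independent of each other.

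Over the probes that had a ratio, the median log2 ratio of the keratins was 0.36, 0.13 and 0.13 (36, 37 and 35 probes), bounds included, where that of all probes was 0.00 in each line. Among the 31 probes detected on both arrays, 24, 17 and 19 were higher and 7, 14 and 12 lower. Their medians were 0.35, 0.09 and 0.13, and those of all probes detected on both arrays were -0.01, 0.00 and -0.01. Without a filter on dim probes the median fell below 0 in L1210-Fbxw11c (-0.038) and L1210-Fbxw11d (-0.032), and with another background correction (normexp) it did so in L1210-Fbxw11d (-0.039). The medians of all probes were then -0.07 and -0.11 without the filter and -0.10 with normexp.

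**Figure D2:**
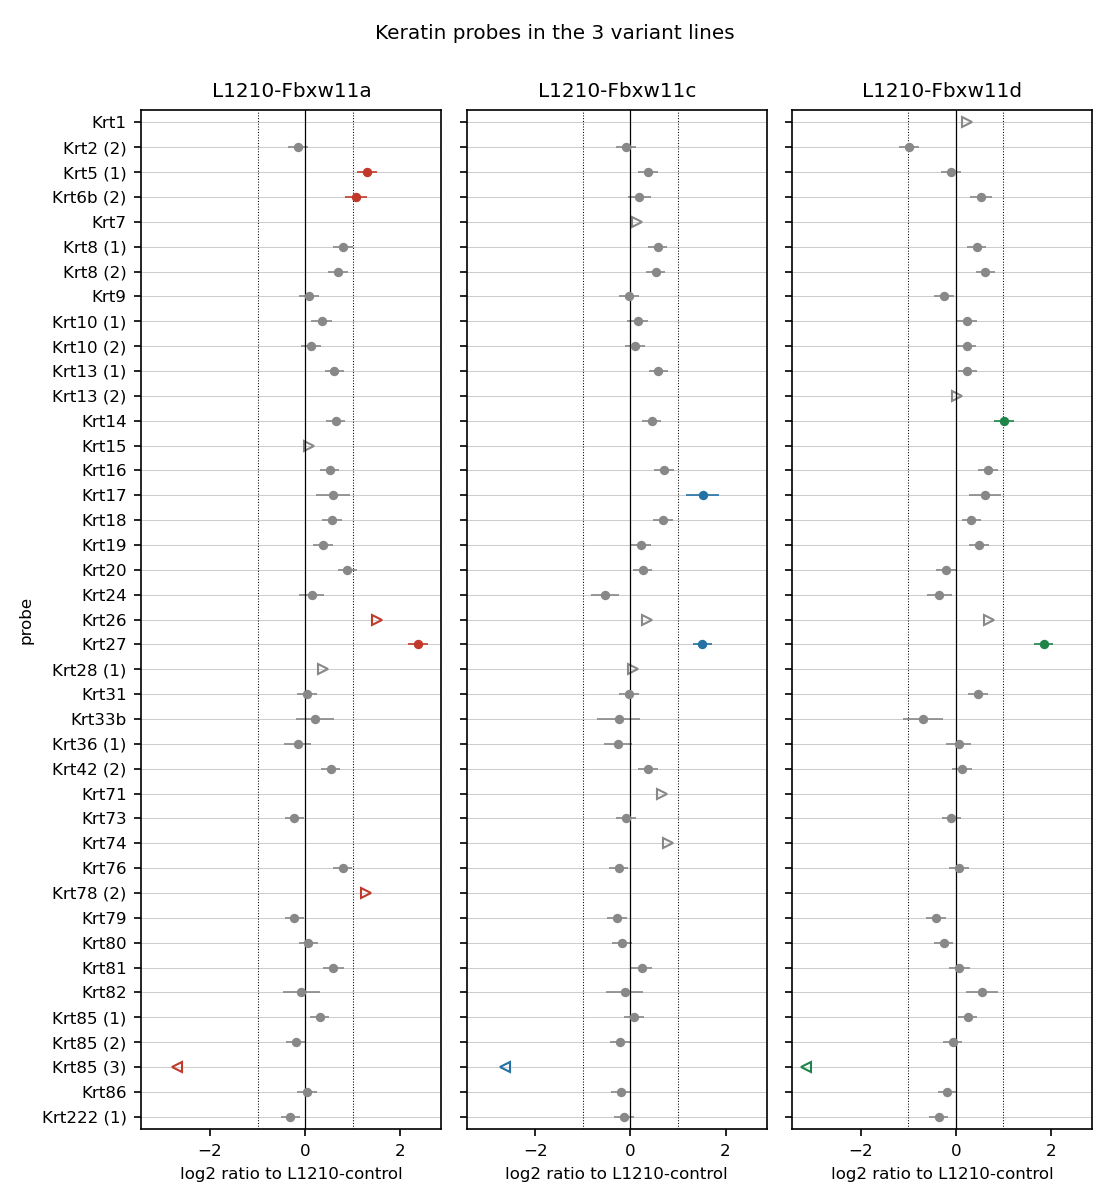
Log2 ratio to L1210-control of the 41 keratin probes with a ratio in at least 1 variant line, 1 panel per line. Circles are probes detected on both arrays, with the scanner software's error, triangles are bounds, dotted lines mark 2-fold, and colour marks probes at or past it. Krt27 lies right of the line in all 3 panels and the third Krt85 probe left of it, while most other probes lie between the lines.

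Among the keratins of simple epithelia, Krt8, Krt18 and Krt19 were higher than in L1210-control in each variant line, and each by less than 2-fold. Krt8 is the type II partner of Krt18. Its first probe read 9939, 17214, 14787 and 13501, and its second 60308, 97158, 86925 and 92763. In both probes L1210-control was the lowest line, and the log2 ratios were 0.79, 0.57 and 0.44 by the first and 0.69, 0.53 and 0.62 by the second (error 0.20 each). Krt18 read 60374, 89044, 96980 and 75737. Its log2 ratios were 0.56, 0.68 and 0.33 (error 0.20 each), again with L1210-control lowest. Krt19, a type I keratin of simple and glandular epithelia, read 11444, 14811, 13310 and 16107, with log2 ratios of 0.37, 0.22 and 0.49. The ratio of Krt19 in L1210-Fbxw11c was close to the error of 0.20.

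Krt20, a type I keratin of the gut lining, read 1280, 2370, 1528 and 1109. It was highest in L1210-Fbxw11a, by 0.89 (log2) over L1210-control and by 2.14-fold over L1210-Fbxw11d. Krt7, a type II keratin of ducts and glands, was detected only in L1210-Fbxw11c (19.9) and L1210-Fbxw11d (13.9), close to the limits of these arrays.

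The keratins of stratified epithelia differed in their pattern over the lines. Krt5, the type II keratin of basal keratinocytes, read 122, 302, 157 and 114. Only L1210-Fbxw11a stood apart, with a log2 ratio of 1.30 ± 0.21, while the ratios of the other two lines were 0.37 and -0.10, the last of which lay above 0 under other scalings (0.11 with median centring). After normexp correction the ratio in L1210-Fbxw11a was 0.996, just inside 2-fold. A second Krt5 probe, at 4.15, 3.37, 4.03 and 2.07, was detected in no line, so the difference rests on 1 of 2 probes. The mean of both gave 0.50, but it takes in the ratio of an undetected probe and so cannot test the difference. Krt14, the partner of Krt5, read 188, 293, 256 and 380. Here L1210-Fbxw11d was the highest line, with a log2 ratio of 1.01 ± 0.21 that was just past 2-fold, beside 0.64 in L1210-Fbxw11a and 0.44 in L1210-Fbxw11c. The pair was therefore highest in different lines.

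Of the pair of the upper epidermis, Krt10 was detected in all 4 lines and Krt1 in 2. The Krt10 probes read 108, 137, 120 and 128 and 815, 886, 869 and 955, with log2 ratios of 0.35, 0.15 and 0.24 and of 0.12, 0.09 and 0.23. Krt1 was not detected in L1210-control (15.6) or L1210-Fbxw11a (15.3), and it read 17.3 in L1210-Fbxw11c and 21.4 in L1210-Fbxw11d. Krt2, a late type II keratin of the epidermis, read 113, 102, 106 and 57.2. Its log2 ratio of -0.98 ± 0.22 in L1210-Fbxw11d, 1.98-fold lower, was the lowest of a keratin detected on both arrays and lay just inside the threshold.

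In the pair of the mouth and oesophagus, Krt13 was detected and its partner Krt4 was not. The first Krt13 probe read 317, 485, 477 and 375, with log2 ratios of 0.61, 0.59 and 0.25 (error 0.20 each). Krt76, a type II keratin of the palate, read 557, 964, 470 and 585. It was higher in L1210-Fbxw11a by 0.79 ± 0.20 and differed from L1210-control by -0.25 and 0.07 in the other two lines, and L1210-Fbxw11a was 2.05-fold over L1210-Fbxw11c. Krt12, the type I keratin of the cornea, was not detected with either of its 2 probes.

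Krt6a, Krt6b, Krt16 and Krt17 are known as the keratins that epidermis makes on wounding. Krt6a was not detected. The second Krt6b probe read 53.4, 113, 60.7 and 76.8, 2.11-fold higher in L1210-Fbxw11a than in L1210-control (log2 ratio 1.08 ± 0.23), and its ratios in the other two lines were 0.18 and 0.52. The first Krt6b probe was detected only in L1210-Fbxw11c (17.4). Krt16 read 1533, 2193, 2500 and 2449, with L1210-control lowest and log2 ratios of 0.52, 0.71 and 0.68 (error 0.20 each). Krt17 read 22.7, 34.2, 64.9 and 34.7. Its log2 ratio of 1.52 ± 0.34 in L1210-Fbxw11c was close to that of Krt27 (1.51) and, with it, the largest of a keratin detected on both arrays, beside 0.59 and 0.61 in L1210-Fbxw11a and L1210-Fbxw11d, and its signals are in the range where the SD between spots of a probe was 0.42 or more. After normexp correction its ratios were 0.12, 0.48 and -0.19, so that the direction in L1210-Fbxw11d turned.

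In the inner root sheath group, Krt27 read 449, 2329, 1283 and 1616. L1210-control lay far below the variant lines, which were 5.18-fold, 2.86-fold and 3.60-fold higher, or 2.37, 1.51 and 1.85 on the log2 scale (error 0.20 each). It stayed past 2-fold under every scaling and background correction tried. Its neighbour Krt26 was not detected in L1210-control (13.1) and read 51.5, 22.9 and 29.4 in the variant lines, at least 2.85-fold, 1.26-fold and 1.62-fold higher. After normexp correction the bound for Krt26 was 0.53 (log2) in L1210-Fbxw11a, inside 2-fold, and 0.035 in L1210-Fbxw11c. Krt28, on the other side of Krt27, had 1 probe that was not detected in L1210-control (15.2) and read 23.6, 18.6 and 17.2. Krt25 was not detected.

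Of the type II keratins of the inner root sheath and companion layer, Krt73 read 1292, 1105, 1214 and 1211, with log2 ratios of -0.23, -0.09 and -0.09. Its lines differed by 1.17-fold at most. Krt71 was detected only in L1210-Fbxw11c (28.5), at least 1.58-fold over L1210-control, and Krt74 was highest there (31.2), at least 1.72-fold over L1210-control. Between variant lines, L1210-Fbxw11c exceeded L1210-Fbxw11d by at least 2.74-fold for Krt71 and by 2.27-fold for Krt74. Krt72 was detected in L1210-Fbxw11a (17.7) and L1210-Fbxw11d (11.4), near the limits of both arrays, and no fold is given for it. Krt75 was not detected.

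The start of Krt27 on the genome is shown next because its probe differed most among those detected in all 4 lines. It is the 250 bases before the annotated start in RefSeq, at chr11:99351119-99351368 on the minus strand (GRCm38.p6), written 5' to 3' with a TATA box (TATAAA) in capitals.
Krt27: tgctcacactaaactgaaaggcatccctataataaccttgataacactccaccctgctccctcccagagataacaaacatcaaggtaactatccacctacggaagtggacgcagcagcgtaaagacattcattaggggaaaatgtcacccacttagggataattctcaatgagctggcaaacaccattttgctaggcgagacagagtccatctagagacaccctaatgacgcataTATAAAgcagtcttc
TATAAA was searched on the gene's strand at any position of the 250 bases, and whether a match works as a TATA box was not tested. RefSeq promoters were at hand for 35 of the 52 keratin genes (36 promoters), and 15 of these 36 (41.7%) held it, as did 7.59% of all 32851 promoters of the same length. All 4 type I inner root sheath genes, Krt25, Krt26, Krt27 and Krt28, were among the 15, though Krt25 was not detected in any line. CTTTGAT, a TCF/LEF site searched on both strands, was in 2.78% of the keratin promoters and 3.21% of all, and TGANTCA, an AP-1 site on both strands, in 5.56% and 6.75%. The κB consensus was in 3 of the 36, those of Krt14, Krt23 and Krt79, or 8.33%, and in 3.90% of all. None of the 4 motifs was found in the windows of Krt8 and Krt18. A match is no evidence of binding, and keratin genes descend from each other, so their promoters are not independent.

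No hair keratin probe was 2-fold different from L1210-control, except the third Krt85 probe described further on. Krt31 read 214, 220, 209 and 296, Krt86 313, 323, 272 and 278, and Krt81 97.6, 147, 115 and 103. Krt33b, with signals of 19.2, 22.1, 16.2 and 11.9 near the limits, had the next lowest log2 ratio to that of Krt2 in L1210-Fbxw11d (-0.69 ± 0.43). Krt82 read 21.9, 20.7, 20.1 and 32.0, and Krt36 by its first probe 38.4, 34.5, 32.0 and 40.1.

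Other keratins detected in every line completed the list. Krt42 read 1991, 2889, 2572 and 2186 by its second probe, with log2 ratios of 0.54, 0.37 and 0.13. Krt79, a type II keratin of hair follicle openings and sebaceous glands, was lower in each variant line, at 383, 328, 316 and 288 (log2 ratios -0.22, -0.28 and -0.41, errors 0.21, 0.21 and 0.20). Krt222 read 2536, 2046, 2312 and 1974 by its first probe and was likewise below L1210-control in each variant line (-0.31, -0.13 and -0.36). Among the probes detected on both arrays, Krt24 had the lowest log2 ratio in L1210-Fbxw11c, -0.54 ± 0.29, with signals of 39.9, 44.0, 27.5 and 31.5. For Krt80 and Krt9 the ratio farthest from 0 was -0.26, in L1210-Fbxw11d.

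Probes of the same gene did not always read alike. Of the 52 genes, 14 had several probes (30 in all). In 4 genes the probes had the same flag in every line, and in 10 they differed. In 5 genes 1 probe was detected in all 4 lines and another in none. Krt8 and Krt10 were the 2 genes with every probe detected in all 4 lines, and their probes' log2 ratios differed by 0.02 to 0.22. In 4 genes (Krt8, Krt10, Krt13 and Krt85) several probes had a ratio in the same line, and among these only the probes of Krt85 disagreed by more than 2-fold.

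The third Krt85 probe was the sole keratin probe at least 2-fold lower in the variant lines. It read 92.7 in L1210-control and was not well above background in L1210-Fbxw11a (12.8), L1210-Fbxw11c (7.93) or L1210-Fbxw11d (8.11). It was at least 6.45-fold, 6.24-fold and 8.91-fold lower in these lines, or at most -2.69, -2.64 and -3.16 on the log2 scale. After normexp correction these bounds were -1.14, -1.24 and -1.68. The other two probes of Krt85, a type II hair keratin, read 9630, 11922, 10154 and 11448 and 551, 481, 472 and 528, within 0.31 of L1210-control on the log2 scale. The first of these is at least 70% identical to the Krt81 probe, so the gene behind its signal is uncertain. The deposited coordinates put the third probe at chr15:101261695-101261754 (mm9), 84422 bases from the second Krt85 probe and 1861 bases from the Krt83 probe, so the gene it reads is uncertain.

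For Krt78, a type II keratin of stratified epithelia, 2 probes overlap by 50 bases. Shown is the second, at chr15:101776599-101776658 on the minus strand (mm9). Capitals mark the 50 bases that both share, and the first probe begins with them, 10 bases further on.
Krt78: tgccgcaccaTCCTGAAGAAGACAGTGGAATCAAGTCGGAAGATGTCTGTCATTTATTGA
The second probe was detected only in L1210-Fbxw11a (43.8) and read 15.2, 3.27 and 9.59 in the other lines, at least 2.42-fold higher in L1210-Fbxw11a than in L1210-control. The first probe read 4.24, 3.53, 3.60 and 2.82 and was not detected in any line. The difference rests on 1 spot of 1 of the 2 probes.

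Between the variant lines, 4 of 43 keratin probes compared were at least 2-fold different between L1210-Fbxw11a and L1210-Fbxw11c (4.92% of all probes), 3 of 41 between L1210-Fbxw11a and L1210-Fbxw11d (7.34%), and 2 of 40 between L1210-Fbxw11c and L1210-Fbxw11d (5.26%). The first 4 were Krt76, Krt78 and Krt26, higher in L1210-Fbxw11a, and Krt74, at least 2.17-fold lower. The next 3 were Krt5 (2.65-fold), Krt78 (at least 4.21-fold) and Krt20, all higher in L1210-Fbxw11a, and the last 2 were Krt71 and Krt74. After normexp correction 0, 2 and 0 probes were past 2-fold in these comparisons, with no share of all probes given for that setting. Over all 4 lines, 7 of the 31 probes detected in each had a highest signal at least 2-fold over the lowest, where 10.1% of all probes detected in each did. These were Krt5 (2.65-fold), Krt6b (2.11), Krt14 (2.02), Krt17 (2.86), Krt20 (2.14), Krt27 (5.18) and Krt76 (2.05).

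The genes that keratins work with were described by lists drawn up with earlier results known. In the cornified envelope list of epidermal barrier proteins, 10 of 44, 6 of 43 and 5 of 44 probes compared were at least 2-fold lower in the variant lines, against 2.42%, 2.78% and 5.99% of all probes, and 1, 2 and 2 were higher. The list's median log2 ratios were 0.01, -0.13 and -0.09, where that of all probes was 0.00 in each line. Loricrin (Lor), the main protein of that envelope, read 347, 52.0, 52.6 and 64.1, with log2 ratios of -2.74, -2.72 and -2.44. Sprr2e, Sprr2h, Sprr2i and Flg2 were also at least 2-fold lower in each variant line. The calls in L1210-Fbxw11a included 1 Lce1c probe (-1.30), Lce1g (-1.43) and 2 Lce1i probes (-1.44 and -1.40). How much the probes of such related genes took up RNA of each other was not tested. The counts are therefore of probes and not of independent genes. In the desmosome list, which holds the junction proteins that anchor keratin, 2 of 19, 1 of 16 and 0 of 18 probes were at least 2-fold higher, against 2.71%, 1.69% and 0.985% of all probes, and none was lower by as much. The list's median log2 ratios were 0.17, 0.15 and 0.08. These were 1 probe each of Dsg4 (88.8) and Dsg3 (36.9), detected only in L1210-Fbxw11a, and 1 of Dsg2, which read 29.4, 45.1, 61.9 and 52.2. Other probes of these genes read otherwise. A second Dsg4 probe was detected only in L1210-Fbxw11d (21.6), and a second Dsg3 probe only in L1210-control (20.6) and L1210-Fbxw11d (19.3).

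Of the probes for keratin-associated proteins, which cross-link hair keratin, 2 of 41 compared were at least 2-fold higher in L1210-Fbxw11a (2.71% of all probes), and 5 of 39 were lower in L1210-Fbxw11d (5.99% of all probes). Their median log2 ratios were -0.01, -0.05 and -0.28. One of the first was Krtap6-2, which read 321 in L1210-Fbxw11a and was not detected in any other line. Among the other intermediate filament genes, 1 of 17 probes compared in L1210-Fbxw11d was at least 2-fold lower (5.99% of all probes). This was Sync (-1.18), and no probe of this list passed 2-fold in L1210-Fbxw11a or L1210-Fbxw11c. Vimentin (Vim) read 158713, 171727, 154289 and 167983, and lamin A (Lmna) 57694, 55324, 53908 and 66706, neither past 0.21 on the log2 scale. Of the probes for epithelial markers, 25, 24 and 26 were compared, and their median log2 ratios were 0.04, 0.07 and 0.04. Past 2-fold were 1 of the 25 in L1210-Fbxw11a (2.71% of all probes were higher there), which was Epcam (log2 ratio 1.22), and 1 of the 26 in L1210-Fbxw11d (5.99% were lower), which was Cdh3, detected only in L1210-control (23.3) and at least 2-fold lower in L1210-Fbxw11d. Whether other epithelial cells had a part in these keratin differences was not tested.

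**Figure D3:**
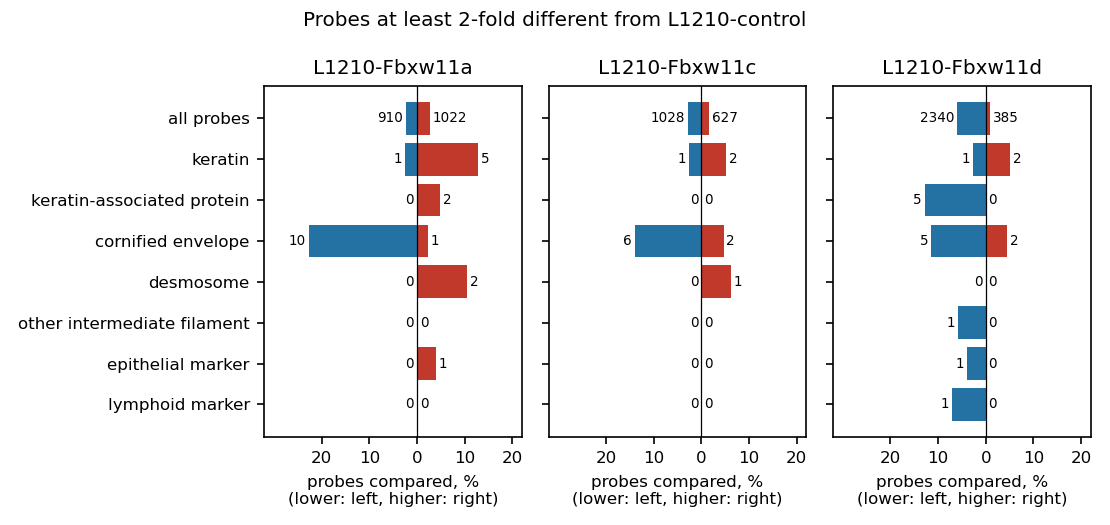
Share of the probes compared that were at least 2-fold lower (bars to the left) or higher (bars to the right) than in L1210-control, for all probes, the keratins and 6 gene lists, 1 panel per line, with the number of probes at each bar. The keratin bars are longer to the right than to the left in each panel, and those of cornified envelope genes longer to the left.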

How the data were processed

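Total RNA of 4 lines was hybridised to 1 Agilent mouse array each. The authors deposited Feature Extraction scanner output with a background-corrected signal intensity per spot (version 10.7.1.1 per the file headers, 9.1 per the submitters' processing notes), and 1 table of these intensities with normalized log2 values, detection flags and gene symbols with mm9 coordinates. The method behind the deposited log2 values is not given in the sources used here.

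From the scanner intensities, log2 minus the 75th percentile of each array (620.2, 627.3, 672.5 and 954.2 L1210-control first, then the variant lines by letter) was used. Control spots were left out, as were outlier-flagged spots (102 to 167 an array, none of a keratin), spots of a probe were averaged, and no spot was saturated. A probe was well above background where at least 0.5 of its spots were. Each number rests on 1 array per line, which limits its precision.

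Named genes followed a rule: every keratin by its number of lines, and with values the probes at least 2-fold different in all lines, the 3 largest rises and falls, genes whose probes disagree, and known pairs. Others with values were chosen after these were seen. The members and lists were chosen with earlier results of these data known. A marker gene's values and a probe sequence are not reported here. Promoters came from RefSeq (GRCm38.p6), and motif matches were exact. Simulated data with known changes were used to test the calls, and the outcome is not given here. Python 3.11.15, numpy 2.4.6, pandas 2.3.3, R 4.3.3 and limma 3.58.1 (normexp, offset 50) were used.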

Additional observations from a re-analysis of the deposited data

How the results depend on the processing

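The numbers of keratin probes well above background changed by less than 1.5 times under every alternative tried. Quantile normalization, median centring, the authors' normalized log2 values and keeping flagged spots changed each count of 2-fold calls by at most 1.5 times. The median log2 ratio in L1210-Fbxw11d, 0.13, was 0.32 with median centring, 0.21 with quantile normalization and with the authors' values, and 0.07 with the mean of the probes of a gene. The median of all probes in that line was then 0.21 with median centring and 0.03 with quantile normalization and with the authors' values. That of all genes was 0.02 with the mean of the probes. The rise of the keratin median with median centring was therefore largely shared by all probes. With normexp background correction (offset 50), 1 probe was higher in each variant line, 2 had a 2-fold range over the lines, 0, 2 and 0 differed 2-fold between the variant lines (a with c, a with d, c with d), and the median log2 ratios of the 3 lines were 0.14, 0.05 and -0.039. Over all probes the 2-fold calls then fell from 1932 to 519, from 1655 to 445 and from 2725 to 1100 in the 3 lines. The medians of all probes were then 0.00, -0.02 and -0.10. No share of all probes is given for the range or for the differences between the variant lines, so those counts lack a background.

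Without a filter on dim probes, 8, 4 and 4 probes were higher and 4, 4 and 6 lower in the 3 variant lines, 29 had a 2-fold range, 11, 11 and 7 differed between the variant lines, and the medians were 0.17, -0.038 and -0.032. Of all probes 5.12%, 3.72% and 3.22% were then higher and 4.05%, 4.70% and 9.88% lower. The 29 with a range, and the 11, 11 and 7, have no such share beside them and are not read as a keratin result. With detection required on both arrays, 3 were higher in L1210-Fbxw11a, 0 were lower in each line, and 2, 2 and 1 differed between the variant lines, with 1.52% of all probes higher in L1210-Fbxw11a and 1.37%, 1.51% and 4.68% lower. No share of all probes is given here for the differences between the variant lines. With 1 probe per gene 0 were lower in each line (2.02%, 2.27% and 4.70% of all genes). With the mean of the probes of a gene, 2 were higher and 0 lower in L1210-Fbxw11a (2.27% and 1.94% of all genes). The counts of 0 lower follow from the third Krt85 probe leaving the comparison or being averaged with the other two. At a threshold of 1.5-fold, 13, 7 and 6 were higher (6.48%, 4.55% and 4.78% of all probes), 3 were lower in L1210-Fbxw11d (12.9%), 11, 11 and 6 differed between the variant lines (12.6%, 19.1% and 15.7%), and 17 had such a range. At 3-fold, 1, 0 and 1 were higher (1.14%, 0.635% and 0.159%), 0, 1 and 0 differed between the variant lines (2.05%, 2.55% and 1.63%), and 1 had such a range. The ranges at 1.5-fold and 3-fold have no share of all probes beside them. No other cause was tested. No paired analysis was possible because each line has 1 array. The signal over background sets what can be seen: probes near the limit, such as Krt17, Krt26 and Krt78, rest on single dim spots.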
